A study of Mus musculus with 22 samples.

Results

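Collagens are secreted or membrane proteins in which 3 chains wind around each other, and each chain is the product of its own gene. The collagen chain genes were taken from the deposited table as every row whose symbol consists of Col, a number, the letter a and a number. There were 43 such rows among 22520 genes: 11 chains of fibrillar collagens, 6 of basement membrane type IV collagen, 9 of fibril-associated collagens with interrupted triple helices (FACIT), 6 of beaded filament type VI collagen, 3 of short-chain networks, 2 multiplexins, 4 transmembrane collagens, the anchoring fibril chain Col7a1, and Col28a1. Col26a1, listed in the table under the older symbol Emid2, lies outside the pattern and was at 0.289 to 2.01, with a mean of 0.986.

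The study sequenced polyA RNA of mouse lungs, 22 libraries in all, to ask what hyperoxia (breathing raised oxygen) changes in the newborn lung and whether the sexes differ. At postnatal day 7 (PND7) there were 2 male and 3 female libraries from room air and 3 male and 2 female libraries from hyperoxia. At postnatal day 21 (PND21) there were 3 libraries of each sex in room air and 3 of each sex in hyperoxia. The oxygen level, the length of the exposure, the strain and the pooling of animals are not given in the sources used here. The labels do not say whether the libraries of a group came from separate animals, so the p-values measure the spread between these samples, which may be technical.

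Fibrillar chains such as Col1a1, Col1a2 and Col3a1 build the rope-like fibrils that carry tension in alveolar walls, airways and vessels. Type IV chains form the sheet-like network of basement membranes, where Col4a1 and Col4a2 pair in nearly every tissue, and Col4a3, Col4a4 and Col4a5 form a network found in the alveolar and glomerular basement membranes. FACIT chains attach to the surface of fibrils, type VI collagen forms fine beaded filaments close to cells, and transmembrane collagens are anchored in the cell membrane. In the postnatal lung, fibroblasts and myofibroblasts make most fibrillar collagen while the alveoli are being partitioned.

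Several of these genes lie in pairs that share or nearly share a start, and the levels of such pairs are set side by side further on. Coordinates are on mm10 (GRCm38), from GENCODE M21. Col4a1 (chr8:11198423-11312826, minus strand) and Col4a2 (chr8:11312805-11449287, plus strand) are transcribed away from each other and overlap by 22 bases at their starts. Col4a4 (chr1:82448423-82586849, minus strand) and Col4a3 (chr1:82586921-82722059, plus strand) also point away from each other, with 71 bases between their starts. Col4a6 (minus strand) and Col4a5 (plus strand) on chromosome X have RefSeq starts 1343 bases apart. The stretch shared by the first pair and that between the starts of the second pair, from RefSeq (GRCm38.p6), are printed 5′ to 3′ with a GC box (GGGCGG or CCGCCC) in capitals:
Col4a1 and Col4a2, chr8:11312805-11312826, plus strand: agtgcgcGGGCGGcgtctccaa
Col4a4 and Col4a3, chr1:82586850-82586920, minus strand: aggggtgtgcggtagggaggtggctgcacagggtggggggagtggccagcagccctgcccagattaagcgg
The first stretch held a GC box. The second held no GC box, no TATA box (TATAAA or TTTATA) and no CCAAT box (CCAAT or ATTGG). Of all 32851 promoter entries, 20.7% held a GC box in the 71 bases before the start, 4.41% a TATA box and 13.3% a CCAAT box. These shares match the second stretch in length. The first has 22 bases and lies inside both genes, so they do not apply to it.

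The upstream stretches of 3 of the chains that passed the test at PND7 are printed with the same motifs in capitals, read on both strands. A link between these letters and the response to oxygen was not tested. Col3a1 and Col24a1 were lower in hyperoxia at PND7 and Col18a1 was higher.
Col3a1, chr1:45311288-45311537, plus strand: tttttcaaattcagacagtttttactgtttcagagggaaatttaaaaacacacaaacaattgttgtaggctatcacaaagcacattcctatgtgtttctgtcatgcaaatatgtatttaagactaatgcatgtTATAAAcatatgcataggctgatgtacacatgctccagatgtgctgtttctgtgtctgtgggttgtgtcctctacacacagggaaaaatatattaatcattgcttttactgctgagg
Col24a1, chr3:145292222-145292471, plus strand: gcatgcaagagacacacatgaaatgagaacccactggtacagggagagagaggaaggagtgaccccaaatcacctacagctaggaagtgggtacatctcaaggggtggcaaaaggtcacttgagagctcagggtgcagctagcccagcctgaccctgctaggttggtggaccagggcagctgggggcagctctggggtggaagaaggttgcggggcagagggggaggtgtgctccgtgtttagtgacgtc
Col18a1, chr10:77166549-77166780, minus strand: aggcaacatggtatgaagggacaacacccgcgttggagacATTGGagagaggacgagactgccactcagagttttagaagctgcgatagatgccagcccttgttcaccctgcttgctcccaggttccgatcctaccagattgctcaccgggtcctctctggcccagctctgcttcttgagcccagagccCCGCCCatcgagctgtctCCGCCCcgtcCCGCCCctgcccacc
Col3a1 held the letters of a TATA box, Col18a1 those of a CCAAT box and of several GC boxes, and Col24a1 none of these in the window. The letters were searched anywhere in the window, whatever their distance from the start, so a match need not be a working box. RefSeq entries were found for 35 of the 43 genes, with 38 starts in all. In the 250 bases before the start, 22 of these 38 held a GC box, 13 a CCAAT box and 5 a TATA box. Over all 32851 entries the shares were 32.7%, 33.8% and 12.4%. Col18a1 has 2 starts in RefSeq, 52825 bases apart, and the printed stretch lies before the outer start. The gene-level values cannot tell the transcripts from those starts apart.

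Values are FPKM, fragment numbers scaled to sequencing yield and to transcript length, a scale on which levels of different genes can be compared, after quantile normalization by the authors. In mean over the 22 libraries, 7 of the 43 chains were above 100, 14 were between 10 and 100, 10 were between 1 and 10, and 12 were at or under 1. Col3a1, the chain of type III collagen of distensible tissues, was the highest at a mean of 446 (278 to 706). Col4a1 followed at 384 (242 to 495), then Col1a2 at 281 (148 to 502) and Col4a2 at 261 (171 to 329). Col1a1 at 167, Col6a1 at 166 and Col6a2 at 150.0 came next, and the ranges of neighbours in this order overlapped. All 43 chains together held 0.291% to 0.621% of the summed values of a library. The plot of levels by library shows that the fibrillar class spans from Col3a1 down to chains near the bottom of the table.

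**Figure D1:**
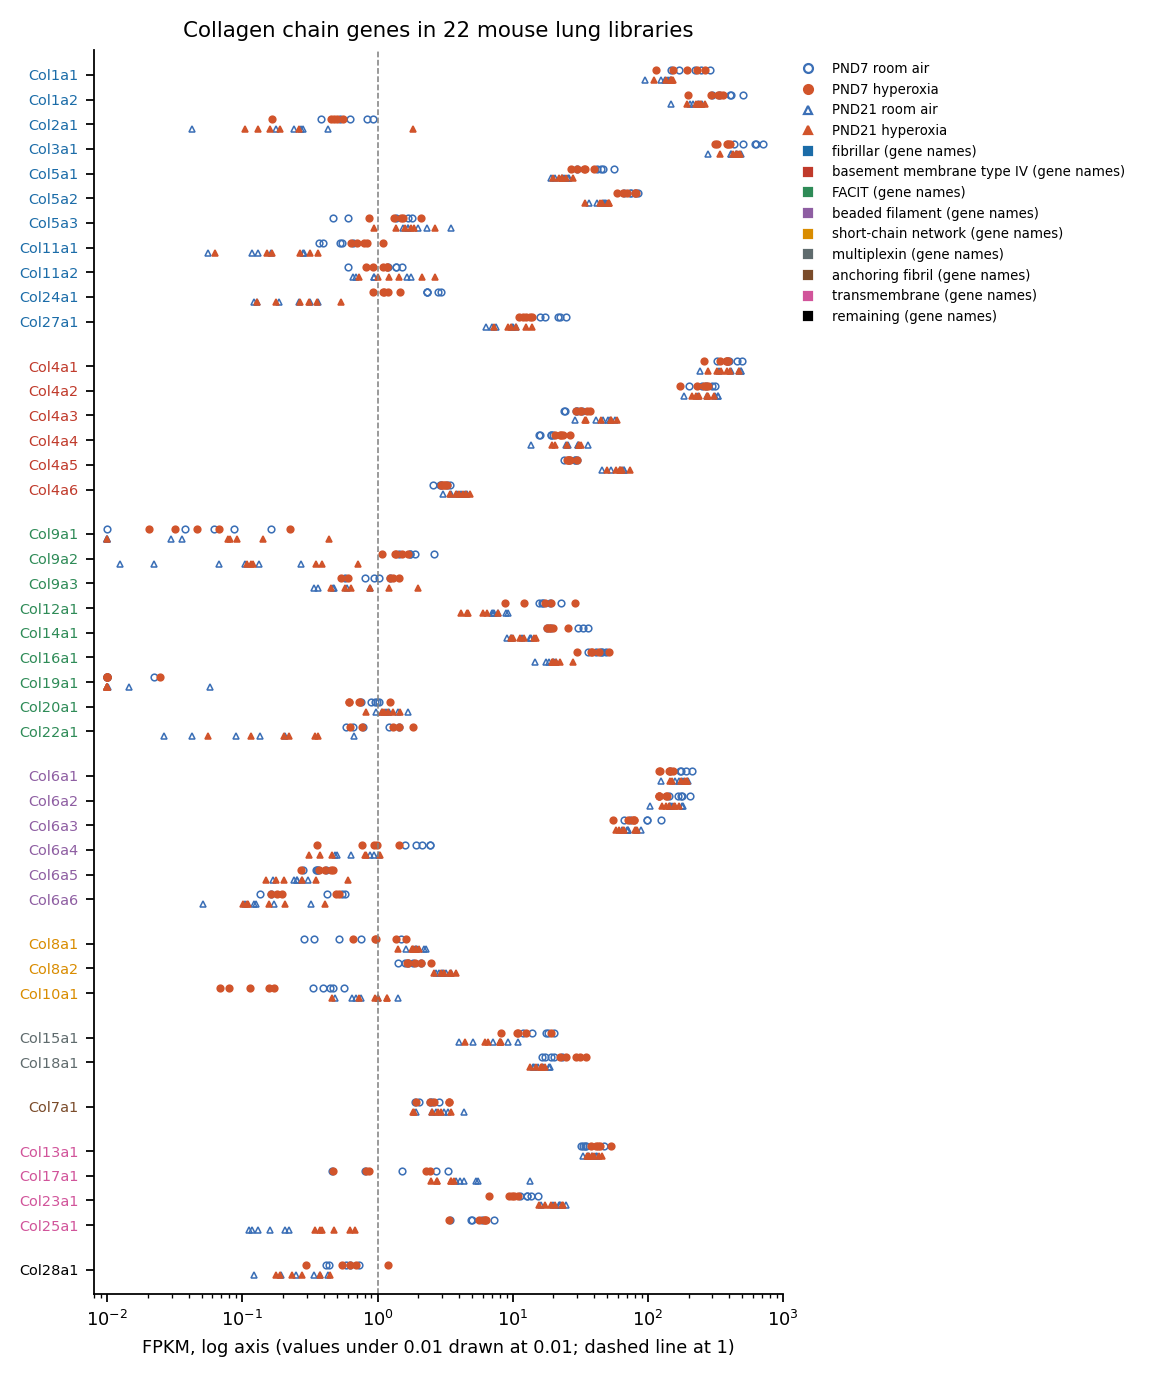
FPKM of the 43 collagen chain genes (rows, coloured by class) in the 22 libraries on a log axis. Circles are PND7, triangles PND21, open symbols room air and filled symbols hyperoxia. Col3a1 and Col4a1 have the highest means, and Col6a5, Col6a6, Col9a1 and Col19a1 stay left of the dashed line at 1 in every library.

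Col6a5, Col6a6, Col9a1 and Col19a1 stayed under 1 in all 22 libraries. Col19a1, a rare FACIT chain, did not exceed 0.0576 and was listed at 0 in most libraries. Col9a1, which joins type II fibrils in cartilage, did not exceed 0.44. Col6a5 reached 0.599 and Col6a6 0.57, both being alternative partners of Col6a1 and Col6a2 in type VI collagen. Col2a1, the cartilage fibril chain, reached 1 in a single library, at 1.83 in male hyperoxia replicate 1 of PND21, and was at 0.0423 to 0.923 elsewhere. Col11a1, its cartilage partner, reached 1 only in female hyperoxia replicate 1 of PND7, at 1.1, and Col28a1 only in male hyperoxia replicate 1 of PND7, at 1.2. Of a list of 12 cartilage markers, 8 were under 1 in all libraries. That list includes the chains Col2a1, Col9a1 and Col11a2, and Col9a1 is among the 8, so it is not separate from the collagen values. Testing required 2 or more libraries at 1 or above, which these 7 chains did not reach, and the other 36 were tested.

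The lung label was checked on 10 lung markers, none of which was under 1 in all libraries. Summed skeletal muscle markers ran from 211 to 3262 in 6 libraries and from 7.75 to 67.9 in the other 16, and summed markers of stratified squamous epithelium were likewise at 321 to 3738 in the same 6 and at 0.608 to 86.7 in the rest. The 6 were spread over male room air, female room air, male hyperoxia and female hyperoxia of PND7 (1 each) and over male and female room air of PND21 (1 each). For collagen chains, changes of call without these 6 libraries in the oxygen, day and age comparisons are named beside the results. Calls of other genes and markers were not read from that fit. The titles number the PND7 samples 17 to 23 (room air) and 26 to 33 (hyperoxia) and the PND21 samples 3 to 15. Effects of that numbering and those of oxygen at PND7, or of age, cannot be told apart.

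Hyperoxia at PND7 went with lower levels of 4 fibrillar and 4 type VI chains and a higher level of Col18a1, of which 3 fibrillar chains, 2 type VI chains and Col18a1 kept their calls without the 6 muscle-rich libraries. In the mean of the sexes 11 of the 36 tested chains passed the test, 10 lower and 1 higher, where 23.4% of all 14200 tested genes passed (13.6% lower and 9.79% higher). By class, 4 of 9 fibrillar chains, all 4 tested type VI chains, 1 of 3 short-chain network chains and 1 of 4 transmembrane chains were lower, and 1 of 2 multiplexins was higher. None of the 6 type IV chains, of the 7 FACIT chains or Col7a1 passed. The median log2 fold change of the 36 chains was -0.15, beside -0.0096 over all tested genes. In bulk tissue, fewer cells of a type and less RNA per cell cannot be told apart. Fold changes are on the log2(FPKM + 1) scale, which understates the change of low genes, and adjusted p-values are Benjamini-Hochberg values over all tested genes.

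Among the fibrillar chains, the abundant Col3a1 changed most in FPKM. In room air Col3a1 was at 706 and 615 in males and 436, 626 and 502 in females, and in hyperoxia at 323, 392 and 315 in males and 388 and 407 in females. All 5 hyperoxia libraries lay below all 5 from room air, with a log2 fold change of -0.66 ± 0.13 (SE, limma adjusted p = 0.00185). Col24a1, a minor fibrillar chain known from developing bone, had the lowest adjusted p of the collagens. In room air Col24a1 was at 2.78 and 2.32 in males and 2.3, 2.3 and 2.95 in females, and in hyperoxia at 0.925, 1.11 and 1.47 in males and 1.12 and 1.18 in females. The groups did not overlap, and the log2 fold change was -0.71 ± 0.10 (SE, limma adjusted p = 0.000235). Col27a1 is a minor fibrillar chain known from cartilage. In room air Col27a1 was at 21.6 and 22.2 in males and 15.9, 17.3 and 25 in females, and in hyperoxia at 13.8, 13.5 and 11.2 in males and 11.9 and 12.5 in females. Here too the hyperoxia libraries lay below those of room air, at -0.67 ± 0.15 (SE, limma adjusted p = 0.0047) in log2. Col5a1, a chain of type V collagen, which starts type I fibrils, overlapped between the groups. In room air Col5a1 was at 56 and 46.7 in males and 29.9, 45.2 and 42.1 in females, and in hyperoxia at 27, 33.4 and 30.0 in males and 34.5 and 39.9 in females. Its log2 fold change was -0.40 ± 0.11 (SE, limma adjusted p = 0.0178). Type I collagen did not pass: the log2 fold change was -0.18 ± 0.18 (SE, limma adjusted p = 0.491) for Col1a1 and -0.38 ± 0.14 (SE, limma adjusted p = 0.0633) for Col1a2. Col1a2 did pass with the skeletal muscle marker mean as a covariate (limma adjusted p = 0.044), and without female room air replicate 1 of PND7, male hyperoxia replicate 2 of PND7 or female room air replicate 1 of PND21 (limma adjusted p = 0.0482, 0.0288 and 0.0361).

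Type VI collagen is assembled from Col6a1, Col6a2 and a further chain, mostly Col6a3. In room air Col6a2 was at 204 and 178 in males and 144, 177 and 168 in females, and in hyperoxia at 120.0, 135 and 121 in males and 139 and 121 in females. The hyperoxia libraries were all below those of room air (log2 fold change -0.46 ± 0.11 SE, limma adjusted p = 0.00721). In room air Col6a1 was at 212 and 190.4 in males and 145, 173 and 177 in females, and in hyperoxia at 144, 145 and 121 in males and 152 and 122 in females. These ranges overlapped, and the log2 fold change was -0.41 ± 0.12 (SE, limma adjusted p = 0.0173). In room air Col6a3 was at 125 and 97.7 in males and 74.3, 98.1 and 66.8 in females, and in hyperoxia at 55.6, 79.5 and 71.3 in males and 78.3 and 76 in females. Col6a3 overlapped more widely, at -0.36 ± 0.12 (SE, limma adjusted p = 0.0388) in log2. Col6a4, an alternative to Col6a3, was low but did not overlap between the groups. In room air Col6a4 was at 2.42 and 2.13 in males and 1.92, 1.61 and 2.44 in females, and in hyperoxia at 0.934, 1.43 and 0.761 in males and 0.986 and 0.359 in females. Its log2 fold change of -0.78 was the most negative of the 36 chains (SE 0.15, limma adjusted p = 0.00177).

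Of the other classes, Col18a1, a proteoglycan of basement membranes whose end fragment is endostatin, was higher. In room air Col18a1 was at 22.9 and 19 in males and 17.4, 20.03 and 16.4 in females, and in hyperoxia at 22.2, 31.6 and 24.6 in males and 29.3 and 34.8 in females. The highest room air library lay above the lowest hyperoxia library and the other libraries were separated, with a log2 fold change of 0.55 ± 0.11 (SE, limma adjusted p = 0.00236). Its relative Col15a1 did not pass (log2 fold change -0.40 ± 0.23 SE, limma adjusted p = 0.208). Col23a1, a transmembrane collagen, was lower. In room air Col23a1 was at 13.5 and 11.4 in males and 12.8, 12.8 and 15.5 in females, and in hyperoxia at 9.94, 10.1 and 9.39 in males and 11 and 6.7 in females. The groups came close without overlapping, at -0.46 ± 0.13 (SE, limma adjusted p = 0.0198) in log2. Col10a1, the chain of hypertrophic cartilage, stayed under 1 at PND7 in both groups. In room air Col10a1 was at 0.447 and 0.392 in males and 0.469, 0.332 and 0.569 in females, and in hyperoxia at 0.0796, 0.0683 and 0.114 in males and 0.17 and 0.156 in females. All hyperoxia libraries were below all room air libraries, and its log2 fold change was -0.35 ± 0.12 (SE, limma adjusted p = 0.0465).

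**Figure D2:**
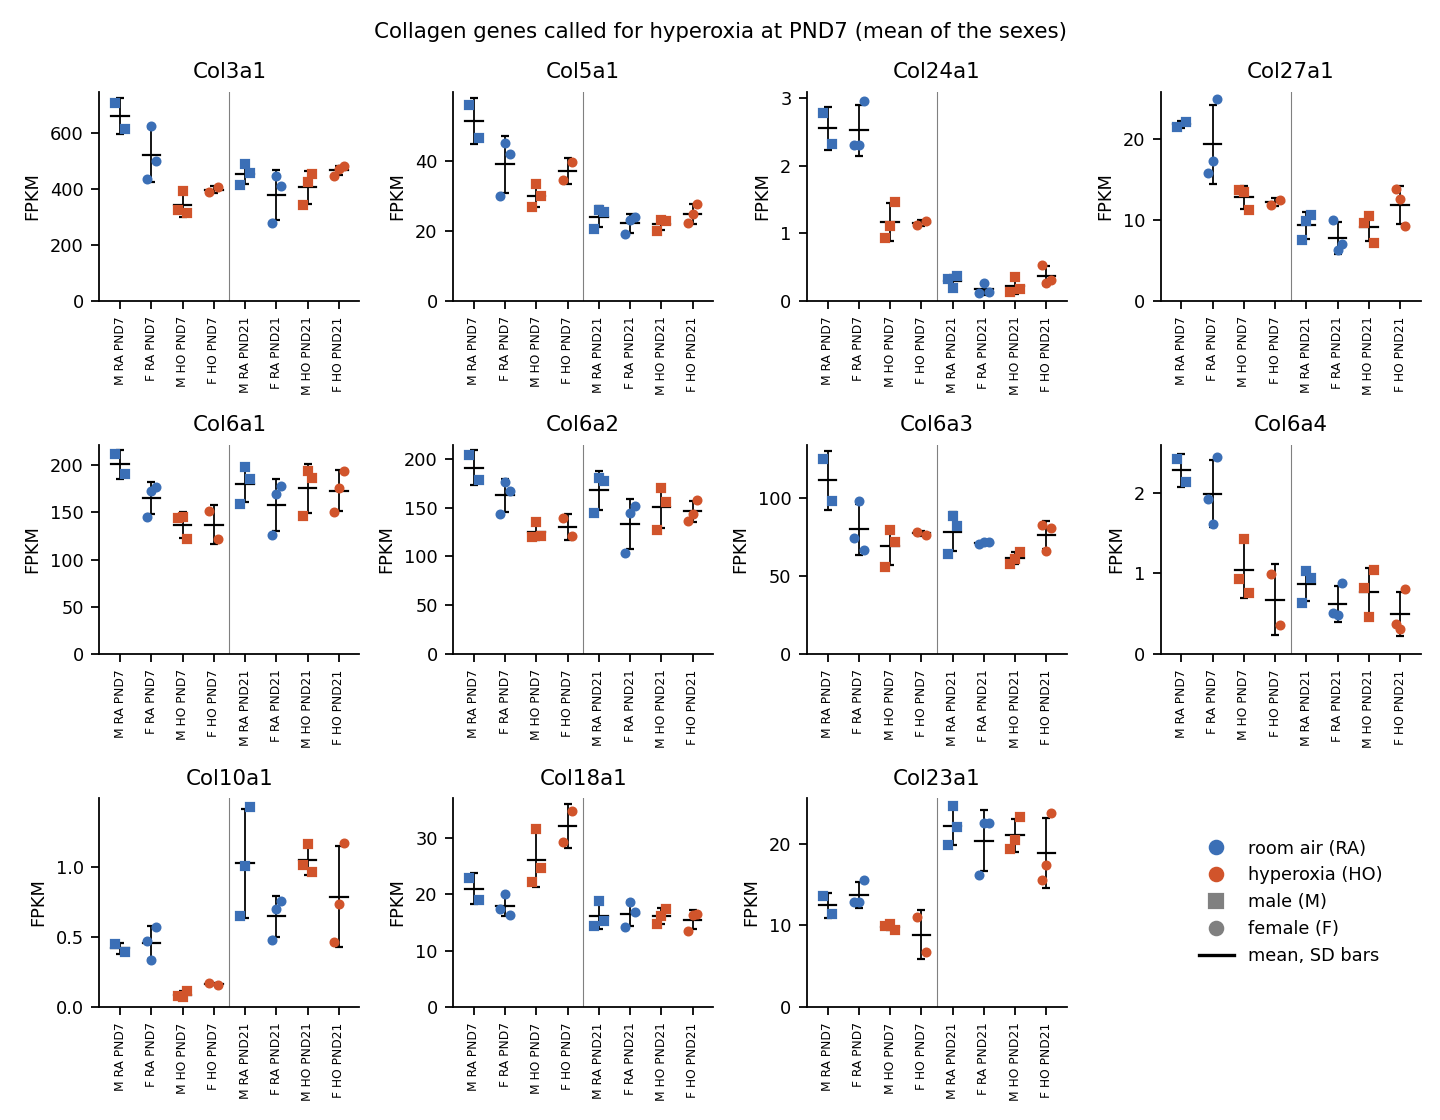
FPKM (linear axes from 0) of the 11 collagen chains that passed the test at PND7, by group, with PND7 left and PND21 right of the grey line. Squares are males, circles females, blue room air, red hyperoxia, black bars the mean and SD. In 7 of the panels all PND7 hyperoxia points lie below all PND7 room air points, and Col18a1 shows the opposite order with 1 overlap.

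Without regard to the model, 7 of the 36 chains (Col3a1, Col24a1, Col27a1, Col6a2, Col6a4, Col10a1 and Col23a1) had all 5 hyperoxia libraries below all 5 room air libraries, where 12% of all tested genes did. Col4a4 had all of them above, where 5.80% of genes did, but did not pass the test (log2 fold change 0.34 ± 0.20 SE, limma adjusted p = 0.214). The call was kept when any 1 of the 22 libraries was left out for Col3a1, Col24a1, Col27a1, Col6a2, Col6a4 and Col18a1. It was lost for Col5a1, Col6a1 and Col23a1 without male room air replicate 1 and without 1 of the 2 female hyperoxia libraries, and for Col6a3 without any of 6 libraries. Col10a1 kept it in 6 of 22 such fits. When only PND7 libraries were fitted, Col5a1 and Col6a3 lost their calls. Col6a3 also lost its call with no filter on low values, and Col10a1 with an offset of 5. The count was 6 without male room air replicate 1 and 7 without female hyperoxia replicate 2. Without the 6 muscle-rich libraries it was 7, 2 higher and 5 lower. There Col5a1, Col6a1, Col6a3, Col10a1 and Col23a1 lost their calls, with limma adjusted p = 0.052, 0.0919, 0.076, 0.0927 and 0.101, and Col8a1 gained one, being higher (log2 fold change 0.54, limma adjusted p = 0.0124).

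Markers of cells that make collagen were read in the same comparison, and only those that were lower are counted here. Higher calls, which 9.79% of all tested genes had, are not given for these lists. The counts therefore do not describe a list as a whole. The summed level of 9 fibroblast markers was 724 to 1038 in room air and 528 to 846 in hyperoxia at PND7, and 3 of the 9 were lower by the test, where 13.6% of all tested genes were lower. For 8 myofibroblast and smooth muscle markers the sums were 1137 to 1557 and 769.7 to 1297, and 2 of the 8 were lower. Aspn, 1 of these 2, is counted again among the fibril-associated proteins further on. The sums overlapped between the groups in both lists. For 6 endothelial markers the sums were 731 to 902 and 556 to 675, and 3 of the 6 were lower. None of these markers was under 1 in all libraries, and their part in the collagen results was not tested.

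Each sex was also compared on its own at PND7. In males 10 chains passed, all of them lower, where 8.73% of all tested genes passed and 5.37% were lower. In females 3 chains passed, where 5.81% of genes did: 1 was higher, where 1.86% of genes were, and 2 were lower, where 3.95% were. Col24a1 and Col6a4 passed as lower in each sex, at -0.72 ± 0.15 (SE, limma adjusted p = 0.00862) and -0.70 ± 0.21 (SE, limma adjusted p = 0.0478) in log2 in males and at -0.70 ± 0.15 (SE, limma adjusted p = 0.0115) and -0.86 ± 0.21 (SE, limma adjusted p = 0.0238) in females. The Col6a4 call held in 8 of 22 fits that left out 1 library and in 4 of 12 other alternatives in males, and in 20 of 22 and 8 of 12 in females. That of Col24a1 held in 20 of 22 and 8 of 11 in males and in 19 of 22 and 9 of 11 in females. In males the others were Col3a1, at -0.94 ± 0.18 (SE, limma adjusted p = 0.00546), and Col14a1, Col1a2, Col5a1, Col27a1, Col6a3, Col6a2 and Col6a1, with log2 fold changes from -0.82 to -0.56. In females the chain that was higher was Col18a1, at 0.80 ± 0.15 (SE, limma adjusted p = 0.00654).

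Col1a1 had the largest difference between the sexes among the 36 chains, without passing the test of that difference. Col1a1 was at 288 and 223 in room air males and 115, 229 and 154 in hyperoxia males. In females it was at 148, 247 and 170.2 in room air and 195 and 265 in hyperoxia. Values overlapped in both sexes, and the log2 fold change was -0.67 ± 0.25 (SE, limma adjusted p = 0.104) in males and 0.30 ± 0.25 (SE, limma adjusted p = 0.498) in females. The difference, females minus males, was 0.97 ± 0.36 (SE, limma adjusted p = 0.997). Col14a1, a FACIT chain that binds type I fibrils, was at 36.3 and 30.5 in room air males and 18.5, 18.9 and 17.9 in hyperoxia males, which did not overlap. In females it was at 19.2, 33.2 and 18 in room air and at 19.8 and 25.7 in hyperoxia, which did, and the difference of the log2 fold changes was 0.82 ± 0.29 (SE, limma adjusted p = 0.997).

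None of the 36 chains passed the test of the difference between the sexes at PND7, nor did any of the 14200 genes (0% of them). The difference was positive, a fold change less negative or more positive in females, for 30 of the 36 chains with a median of 0.30, beside -0.0046 over all genes. Members of a class are not independent of each other, since they share the libraries. The 2 room air males held the highest summed collagen values, 2913 and 3311, against 2121 to 2772 in the 3 room air females, 1749 to 2373 in hyperoxia males and 2349 to 2446 in hyperoxia females. The male count of 10 fell to 0 without replicate 1 and to 2 without replicate 2. It was 5 without male hyperoxia replicate 1, 4 without male hyperoxia replicate 3, 5 without the 6 muscle-rich libraries, 6 when only PND7 libraries were fitted and 2 when only the 2 groups compared were. Without the muscle-rich libraries the male calls of Col6a1, Col6a2, Col6a4, Col24a1 and Col27a1 and the female call of Col6a4 were lost. The female count of 3 fell to 1 without room air replicate 3, and to 0 without hyperoxia replicate 2 or when only the 2 groups were fitted.

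**Figure D3:**
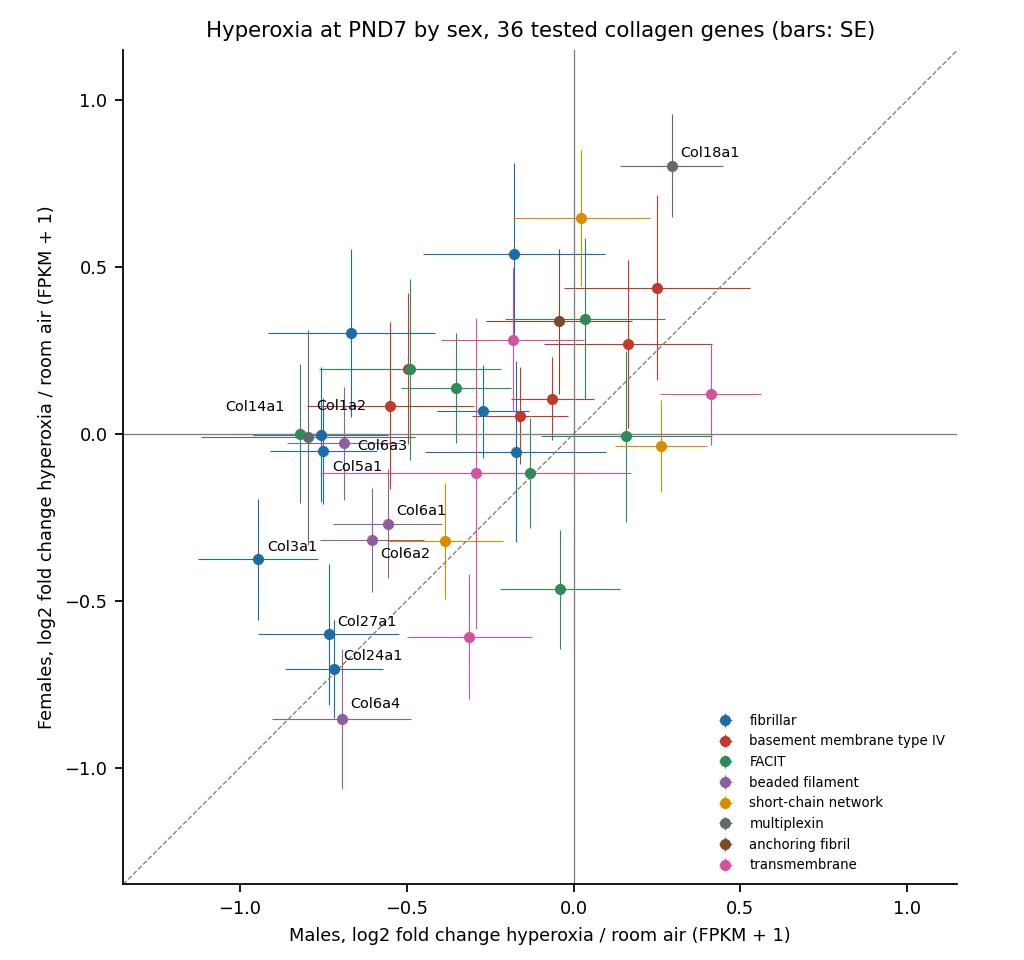
Log2 fold change of hyperoxia over room air at PND7 in males (horizontal) and females (vertical) for the 36 tested collagen chains, with SE bars, coloured by class. Most points, 30 of 36, lie above the dashed line of equality, Col24a1 and Col6a4 are low in both sexes, and Col18a1 is the highest in females.

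The type IV chains did not pass in either sex at PND7. Col4a1 was at 495 and 454 in room air males, 325, 382 and 396 in room air females, 261, 378 and 344 in hyperoxia males and 389.6 and 388 in hyperoxia females. The log2 fold change was -0.23 ± 0.18 (SE, limma adjusted p = 0.364) for Col4a1 and -0.15 ± 0.16 (SE, limma adjusted p = 0.533) for Col4a2 in the mean of the sexes. Col4a3, at 0.22 ± 0.18 (SE, limma adjusted p = 0.406), and Col4a4 had positive values. Col4a4 did pass when only PND7 libraries were fitted (0.34, limma adjusted p = 0.0319) and with library quality weights (0.37, limma adjusted p = 0.0291). As shares of the collagen sum, type IV chains took 26.9% to 28.7% in the 2 room air males and 25.3% to 30.0% in room air females, and 29.9% to 32.5% and 30.0% to 32.4% in hyperoxia. The summed type IV values themselves had means of 862.9 in room air males and 680.5 in room air females, and 633.9 and 747.5 in hyperoxia.

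Ratios of chains that assemble together differed in how widely they ran. Col4a1 over Col4a2, the pair with overlapping starts printed above, was between 1.31 and 1.62 in all 22 libraries, while Col4a1 itself ran from 242 to 495. Col4a3 over Col4a4, the pair 71 bases apart, was between 1.33 and 2.10. The ratio across the pairs, Col4a3 over Col4a1, ran from 0.0608 to 0.143, with 0.083 ± 0.024 (SD, n = 10) at PND7 and 0.120 ± 0.010 (SD, n = 12) at PND21. Col6a1 over Col6a2, which lie on the same strand of chromosome 10 and do not share a start, was between 0.979 and 1.23. Col1a1 over Col1a2, on different chromosomes, was between 0.494 and 0.745, and Col5a1 over Col5a2 between 0.416 and 0.666. Wider ranges were those of Col4a5 over Col4a3, at 0.688 to 1.67, Col6a3 over Col6a1, at 0.314 to 0.622, and Col8a1 over Col8a2, at 0.136 to 1.05. Col3a1 over Col1a1 was 2.61 ± 0.22 (SD, n = 2) in room air males and 2.81 ± 0.24 (SD, n = 3) in room air females of PND7, and 2.19 ± 0.57 (SD, n = 3) and 1.76 ± 0.33 (SD, n = 2) in hyperoxia. Its 12 values at PND21 ran from 2.81 to 3.43. These ratios are descriptions over libraries, with no test. Whether the authors' counting used strand is not given in the sources used here, so reads in the 22 shared bases of Col4a1 and Col4a2 cannot be told apart.

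**Figure D4:**
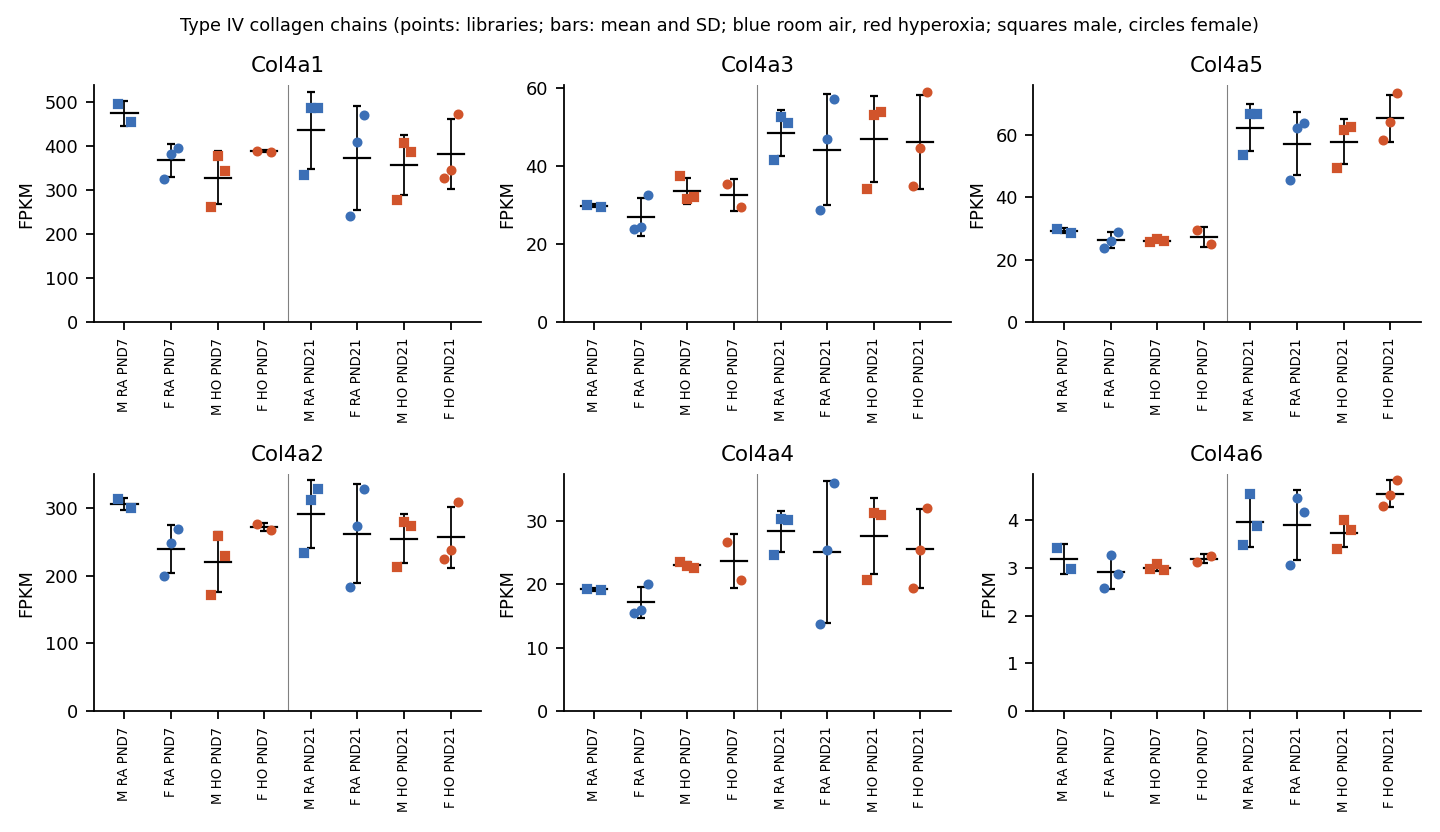
FPKM (linear axes from 0) of the 6 type IV chains by group, with PND7 left and PND21 right of the grey line, points for libraries and bars for mean and SD. Col4a5 lies at 23.9 to 29.9 in all PND7 libraries and at 45.6 to 73.4 in all PND21 libraries, while Col4a1 and Col4a2 overlap between the days.

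Between PND7 and PND21 in room air, most collagen chains changed, fibrillar and FACIT chains mostly downwards, and type IV and short-chain network chains upwards. Of the 36 chains 26 passed, where 49.4% of all tested genes did: 10 were higher, where 23.6% of genes were higher, and 16 were lower, where 25.8% were. By class, 7 of 9 fibrillar chains were lower and 1 was higher, 5 of 7 FACIT chains were lower, 2 of 4 type VI chains were lower, 4 of 6 type IV chains were higher and all 3 short-chain network chains were higher. The median log2 fold change was -0.77 for the fibrillar, -1.13 for the FACIT and 0.38 for the type IV chains, and -0.0089 over all genes. Col9a2, Col22a1, Col24a1 and Col25a1 reached 1 only in PND7 libraries, and Col10a1 only in PND21 libraries. These chains entered the test only through the day on which they were higher, so their age calls rest on values that the filter used.

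Among the fibrillar chains, Col24a1 was at 2.78, 2.32, 2.3, 2.3 and 2.95 in the 5 room air libraries of PND7 and had a median of 0.225 (lowest 0.121, highest 0.362) in the 6 of PND21, without overlap (log2 fold change -1.52 ± 0.10 SE, limma adjusted p = 2.2e-09). The other minor chain Col27a1 was at 21.6, 22.2, 15.9, 17.3 and 25 in the 5 room air libraries of PND7 and had a median of 8.7 (lowest 6.35, highest 10.7) in the 6 of PND21 (-1.18 ± 0.14 SE, limma adjusted p = 2.74e-06). The days did not overlap for either chain. The type V chain Col5a1 was at 56, 46.7, 29.9, 45.2 and 42.1 in the 5 room air libraries of PND7 and had a median of 23.6 (lowest 19.2, highest 26.1) in the 6 of PND21 (-0.92 ± 0.11 SE, limma adjusted p = 2.1e-06), and its partner Col5a2 fell from 66.8–84.1 to 36.9–49.2 (-0.77 ± 0.09 SE, limma adjusted p = 3.39e-06). Type I collagen is the main load-bearing collagen. Its chain Col1a2 was at 502, 415, 300.2, 407 and 334 in the 5 room air libraries of PND7 and had a median of 226 (lowest 148, highest 252) in the 6 of PND21 (-0.89 ± 0.14 SE, limma adjusted p = 3.6e-05), and its partner Col1a1 was at 288, 223, 148, 247 and 170.2 in the 5 room air libraries of PND7 and had a median of 137 (lowest 95.2, highest 148) in the 6 of PND21 (-0.73 ± 0.17 SE, limma adjusted p = 0.00159). Col3a1 fell by less, at -0.51 ± 0.12 (SE, limma adjusted p = 0.00201) in log2. Col5a3 was the fibrillar chain that rose (0.49 ± 0.18 SE, limma adjusted p = 0.0354), from 0.466–1.79 to 1.54–3.48, and Col11a2 did not pass (-0.09 ± 0.18 SE, limma adjusted p = 0.714). The call of Col5a3 was lost without any of 6 libraries and with library quality weights (log2 fold change 0.21, limma adjusted p = 0.222).

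The FACIT chains that fell were Col9a2, Col16a1, Col14a1, Col12a1 and Col22a1. Of these, Col16a1 was at 48.5, 45.5, 35.9, 44.8 and 41.2 in the 5 room air libraries of PND7 and had a median of 19.2 (lowest 14.6, highest 21) in the 6 of PND21, with a log2 fold change of -1.19 ± 0.11 (SE, limma adjusted p = 1.53e-07). It is the highest of its class. The type I fibril binder Col14a1 was at 36.3, 30.5, 19.2, 33.2 and 18 in the 5 room air libraries of PND7 and had a median of 10.8 (lowest 9.13, highest 13.7) in the 6 of PND21 (-1.23 ± 0.14 SE, limma adjusted p = 1.53e-06). Its relative Col12a1 was at 18.8, 22.5, 15.6, 16.4 and 16.8 in the 5 room air libraries of PND7 and had a median of 7.56 (lowest 6.98, highest 9.19) in the 6 of PND21 (-1.12 ± 0.18 SE, limma adjusted p = 6.69e-05). These 3 chains did not overlap between the days in room air. The cartilage chain Col9a2 fell from 1.43–2.63 to 0.0124–0.27 (-1.36 ± 0.12 SE, limma adjusted p = 9.06e-08), and Col22a1, known from tissue junctions such as that of muscle and tendon, from 0.581–1.43 to 0.0263–0.666 (-0.70 ± 0.16 SE, limma adjusted p = 0.00152). Col9a3 and Col20a1 did not pass.

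The largest change of any tested chain was in Col25a1, a transmembrane collagen known from neurons and developing motor innervation. Here Col25a1 was at 7.22, 4.9, 5.95, 4.98 and 3.43 in the 5 room air libraries of PND7 and had a median of 0.146 (lowest 0.111, highest 0.221) in the 6 of PND21, a log2 fold change of -2.44 ± 0.14 (SE, limma adjusted p = 7.06e-10). It was under 1 in every PND21 library and above 3 in every PND7 library, so it entered the test only through its PND7 values. Col23a1 rose from 11.4–15.5 to 16.1–24.7 (0.66 ± 0.13 SE, limma adjusted p = 0.000333), and Col13a1 did not pass (0.08 ± 0.10 SE, limma adjusted p = 0.527). Col17a1, a component of hemidesmosomes in stratified epithelia, rose as well (1.35 ± 0.31 SE, limma adjusted p = 0.00169). It was at 5.55, 3.83 and 4.39 in males and 13.4, 4.07 and 5.35 in females of PND21 in room air. The value of 13.4 came from the library with the highest summed squamous markers, 3738, and without the 6 muscle-rich libraries the log2 fold change was 1.53 (limma adjusted p = 5.6e-05). At PND7 the 4 highest values of Col17a1, 2.29 to 3.29, were in the 4 muscle-rich libraries of that day, and their part in its levels was not tested.

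In the basement membrane, the ubiquitous pair did not pass while the other 4 type IV chains rose. Col4a1 and Col4a2 had log2 fold changes of -0.09 ± 0.17 (SE, limma adjusted p = 0.702) and 0.01 ± 0.15 (SE, limma adjusted p = 0.974), with 95% intervals of -0.44 to 0.27 and -0.31 to 0.33. The X-linked chain Col4a5 was at 29.9, 28.7, 23.9, 26.2 and 29 in the 5 room air libraries of PND7 and had a median of 63 (lowest 45.6, highest 66.8) in the 6 of PND21, without overlap (1.07 ± 0.10 SE, limma adjusted p = 1.37e-07). Col4a3 rose from 23.9–32.5 to 28.8–57 (0.66 ± 0.17 SE, limma adjusted p = 0.00344), Col4a4 from 15.5–19.9 to 13.7–36 (0.48 ± 0.19 SE, limma adjusted p = 0.0401), and Col4a6, which pairs with Col4a5 in smooth muscle basement membranes, from 2.58–3.41 to 3.07–4.55 (0.28 ± 0.08 SE, limma adjusted p = 0.00942). These 3 overlapped between the days, and the call of Col4a4 was lost without any of 8 libraries. The share of type IV chains in the collagen sum was 36.8% ± 2.7 in males and 37.1% ± 4.1 in females (SD, n = 3 each) at PND21 in room air, and that of fibrillar chains was 38.9% ± 2.2 and 38.1% ± 2.4. At PND7 in room air the type IV shares were 27.8% ± 1.2 (SD, n = 2) and 27.7% ± 2.3 (SD, n = 3). The summed type IV values had means of 862.9 in males and 680.5 in females at PND7, and 870.5 and 765.8 at PND21. Those of the fibrillar chains were 1536 and 1193 at PND7 and 912.7 and 774.3 at PND21, so the shares also reflect lower fibrillar sums.

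Of the remaining classes, the network chain Col8a2 rose from 1.43–2.11 to 2.7–3.49 (0.59 ± 0.09 SE, limma adjusted p = 4.95e-05) and Col8a1 from 0.287–1.49 to 1.63–2.26 (0.83 ± 0.14 SE, limma adjusted p = 8.3e-05). Both are known from vessel walls and the cornea. Col10a1 rose from 0.332–0.569 to 0.48–1.42 (0.33 ± 0.12 SE, limma adjusted p = 0.024), a call that was lost without any of 5 libraries. The multiplexin Col15a1 fell from 11.9–20.2 to 3.99–11 (-1.12 ± 0.22 SE, limma adjusted p = 0.000348). Col6a4 (-0.85 ± 0.14 SE, limma adjusted p = 8.1e-05) and Col6a3 (-0.32 ± 0.11 SE, limma adjusted p = 0.0245) fell, while Col6a1, Col6a2, Col18a1 and Col7a1 did not pass.

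The same comparison between hyperoxia libraries gave 23 chains, where 55.4% of all tested genes passed: 10 were higher (29.5% of genes) and 13 lower (25.8%). They include Col9a2, Col10a1, Col22a1, Col24a1 and Col25a1, which entered the test only through the day on which they were higher. Their calls here too rest on values that the filter used. Col25a1 again had the largest change (-2.14 ± 0.14 SE, limma adjusted p = 3.38e-09), and Col4a5 rose (1.17 ± 0.10 SE, limma adjusted p = 4.1e-08). Col18a1 fell here (-0.83 ± 0.10 SE, limma adjusted p = 3.99e-06), from 22.2–34.8 to 13.5–17.4, while Col3a1, Col27a1, Col6a3 and Col6a4, which fell with age in room air, did not pass. Col3a1 was at 315–407 at PND7 and 341–482 at PND21 in hyperoxia, a log2 fold change of 0.23 ± 0.12 (SE, limma adjusted p = 0.108). Col6a1 and Col4a3, which rose in hyperoxia, lost their calls without the muscle-rich libraries (limma adjusted p = 0.0585 and 0.0687). The 2 age comparisons share no library. Summed myofibroblast and smooth muscle markers were at 769.7 to 1557 in PND7 libraries and 288 to 496 in PND21 libraries, and summed fibroblast markers at 528 to 1038 and 2170 to 2822. Their part in the collagen changes with age was not tested.

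**Figure D5:**
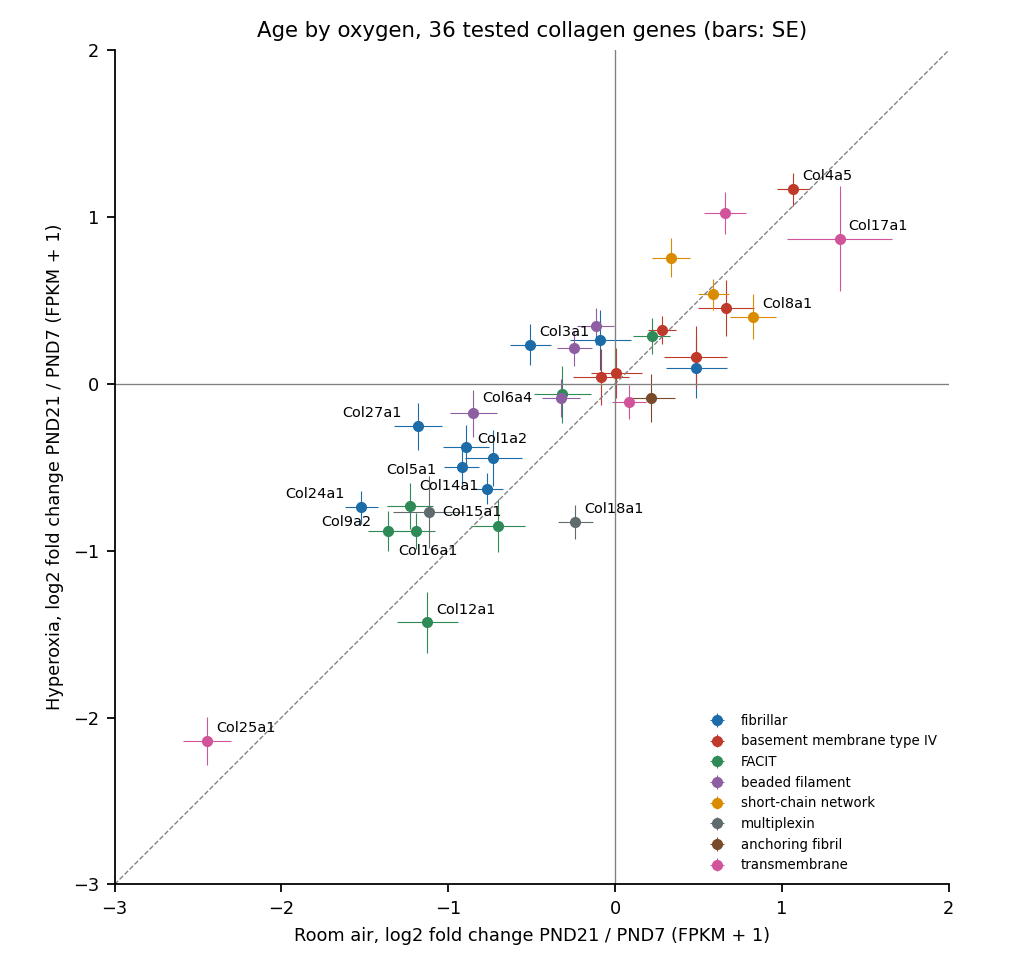
Log2 fold change of PND21 over PND7 in room air (horizontal) and hyperoxia (vertical) for the 36 tested collagen chains, with SE bars, coloured by class. Col25a1 is lowest and Col4a5 high on both axes, and Col3a1, Col27a1, Col24a1 and Col6a4 lie above the dashed line of equality while Col18a1 lies below it.

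The oxygen effect differed between the days for 5 chains, where 10.5% of all tested genes passed. The difference, PND21 minus PND7, was positive for 4 of them, where 7.08% of all tested genes were, and negative for 1, where 3.46% were. It was 0.93 ± 0.20 (SE, limma adjusted p = 0.00891) for Col27a1, 0.78 ± 0.14 (SE, limma adjusted p = 0.00259) for Col24a1, 0.74 ± 0.17 (SE, limma adjusted p = 0.0129) for Col3a1 and 0.67 ± 0.20 (SE, limma adjusted p = 0.0392) for Col6a4. For Col18a1 it was -0.59 ± 0.15 (SE, limma adjusted p = 0.0187). The call of Col6a4 was lost with an offset of 0.1 or 0.5 in place of 1. With an offset of 0.1, Col25a1 gained a call (log2 difference 1.1, limma adjusted p = 0.0361). Col3a1, at 278–489.9 in room air and 341–482 in hyperoxia at PND21, overlapped there. So did Col18a1, at 14.2–18.8 and 13.5–17.4. The count of 5 was 3 without male room air replicate 2 or female hyperoxia replicate 2 of PND7, 8 without female room air replicate 1 of PND7 and 9 with library quality weights. Without the 6 muscle-rich libraries Col3a1 and Col6a4 lost their calls and Col8a1 gained one (log2 difference -0.60, limma adjusted p = 0.0338).

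At PND21 no collagen chain passed for hyperoxia in the mean of the sexes, in males or in females by limma, where 0.282%, 0.0211% and 0.0634% of all tested genes did. The 3 chains with the lowest p in the mean of the sexes were Col12a1 (log2 fold change -0.45 ± 0.17 SE, limma adjusted p = 0.297), Col25a1 (0.35 ± 0.14 SE, limma adjusted p = 0.308) and Col17a1 (-0.68 ± 0.30 SE, limma adjusted p = 0.378). Col25a1 was at 0.131, 0.111 and 0.221 in room air males, 0.161, 0.205 and 0.117 in room air females, 0.387, 0.375 and 0.626 in hyperoxia males and 0.475, 0.343 and 0.677 in hyperoxia females. All 6 hyperoxia libraries were above all 6 of room air, where 0.796% of all tested genes were, though every value was under 1. With an offset of 0.1 in place of 1 its log2 fold change was 1.16 (limma adjusted p = 0.0208). Col17a1 had all 6 below, where 0.423% of genes did, at 2.47–3.68 against 3.83–13.4. Its log2 fold change was -0.40 without the muscle-rich libraries, both of which were room air at PND21. Col12a1 was at 7.8, 8.97 and 9.19 in room air males and 4.66, 4.56 and 4.12 in hyperoxia males, without overlap. In females it was at 6.98, 7.32 and 7.12 in room air and 7.73, 5.97 and 6.45 in hyperoxia, with overlap. It passed in the mean of the sexes and in males when only PND21 libraries were fitted, at -0.45 and -0.82 in log2 (limma adjusted p = 0.0318 and 0.0186), and without the muscle-rich libraries, at -0.49 and -0.89 (limma adjusted p = 0.0241 and 0.0311).

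No chain passed for the difference of the oxygen effect between the sexes at PND21, where 0.0141% of all tested genes did by limma. Females were also compared with males within each condition. No chain passed in any of the 4 comparisons by limma, where 0.0423% and 0.0352% of all genes passed in room air and hyperoxia at PND7 and 0.0634% in both at PND21.

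The genes that fold, process, cross-link, degrade and bind collagen were read from the same fit. Their calls were not read with libraries left out or from the other alternatives. Over all tested genes at PND7, 13.6% were lower and 9.79% higher. At PND7, 0 of 20 folding and modifying enzymes and chaperones were higher with hyperoxia and 1 was lower, Colgalt2, which adds sugars to collagen (-0.39 ± 0.10 SE, limma adjusted p = 0.00992). Of 9 tested procollagen processing and secretion genes 2 were lower, Bmp1 (-0.36 ± 0.08 SE, limma adjusted p = 0.00377), the enzyme that trims the end of procollagen, and Pcolce2 (-0.48 ± 0.12 SE, limma adjusted p = 0.00858), which enhances that step. Of 4 cross-linking enzymes Lox was higher (0.33 ± 0.10 SE, limma adjusted p = 0.0213), while Loxl2 (-0.51 ± 0.11 SE, limma adjusted p = 0.00408) and Loxl3 (-0.30 ± 0.09 SE, limma adjusted p = 0.0269) were lower. Of 12 degradation genes 1 was higher, the metalloproteinase inhibitor Timp1 (1.09 ± 0.13 SE, limma adjusted p = 3.53e-05), and 1 was lower, the membrane-bound inhibitor Reck (-0.83 ± 0.10 SE, limma adjusted p = 4.85e-05).

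Of 7 tested collagen receptors 4 were lower at PND7, where 13.6% of all tested genes were lower and 9.79% higher, led by the fibrillar collagen receptor Ddr2 (-0.76 ± 0.09 SE, limma adjusted p = 3.66e-05), with Itga10, Itga2 and Itgb1 from -0.63 to -0.20. Lair1, a receptor of leukocytes, was higher (0.56 ± 0.18 SE, limma adjusted p = 0.0333). Of 10 fibril-associated proteoglycans and glycoproteins 5 were lower: Aspn (-1.17 ± 0.18 SE, limma adjusted p = 0.000351), Tnc, Tnxb, Prelp and Ogn, the last 4 from -0.83 to -0.53. Of 15 basement membrane partners of type IV collagen 5 were lower, among them the laminin chains Lama2 and Lamc1 and the cross-linking peroxidase Pxdn, these 3 from -0.46 to -0.25. The laminin chains Lamb3 (0.49 ± 0.13 SE, limma adjusted p = 0.0131) and Lama1 (0.39 ± 0.11 SE, limma adjusted p = 0.0193) were higher. At PND21 the single call in these lists was Aspn, which binds fibrils and was higher (1.02 ± 0.16 SE, limma adjusted p = 0.00747).

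With age in room air, 11 of the 20 folding and modifying genes were lower and 5 higher, where 25.8% of all tested genes were lower and 23.6% higher. P4ha3, a prolyl hydroxylase subunit, fell most (-3.13 ± 0.19 SE, limma adjusted p = 1.29e-09), and Fkbp10, Crtap and P3h3 fell as well, with log2 fold changes of -1.23, -0.84 and -0.76. Of the 4 cross-linking enzymes Loxl2 (-1.87 ± 0.11 SE, limma adjusted p = 4.37e-10), Loxl3 and Loxl1 fell, and Lox rose. Among the proteoglycans and glycoproteins 4 fell and 3 rose, with Tnc (-3.46 ± 0.14 SE, limma adjusted p = 1.27e-11), a matrix glycoprotein of developing tissue, at one end and Prelp (2.20 ± 0.15 SE, limma adjusted p = 5.17e-09), which links basement membranes to fibrils, at the other. Of the 15 basement membrane partners 10 fell, led by Nid2 (-0.89 ± 0.10 SE, limma adjusted p = 1.2e-06), which bridges laminin and type IV collagen, and 1 rose, Lama2. In the same comparison 4 of 6 type IV chains rose.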

How the data were processed

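Whole-lung RNA of 22 libraries was sequenced, and reads were aligned with TopHat2 2.0 and quantified with Cufflinks 2.0 on mm10, per the submitters' processing notes. The authors deposited 1 table of FPKM values for 22520 genes. The unit was inferred from Cufflinks and the values, and quantile normalization is read from the table's name. Quantile normalization forces library distributions together and can shift single genes. Read depth is unknown, so no counting interval or detection floor is given. Groups came from the sample labels. Values were analysed as log2(FPKM + 1). Genes at 1 or more in at least 2 libraries (14200) entered a limma 3.58.1 fit (R 4.3.3) of all 8 groups, with an intensity trend, 14 residual degrees of freedom and Benjamini-Hochberg adjustment over all tested genes in each of 15 contrasts (threshold 0.05). The pipeline was tested on simulated data. All 43 symbols matched GENCODE M21 by identifier. Up to 20 chains called in an oxygen, interaction or age contrast were chosen for description, in order of their lowest adjusted p. The highest and lowest chain of a class were added. Values are given by library for some of these, and as a range, a highest value or a fold change for others. Up to 5 called genes per contrast were named from other lists. Members and lists were chosen with earlier results of these data known. Alternatives changed the offset, filter, scaling, weights, libraries fitted and muscle-rich libraries, and left out each library in turn.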

Additional observations from a re-analysis of the deposited data

Results flagged for a closer look

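For 5 collagen chains the oxygen effect at PND21 differed from that at PND7 by the interaction term of the limma fit. The difference, PND21 minus PND7 in log2, was 0.93 for Col27a1, 0.78 for Col24a1, 0.74 for Col3a1, 0.67 for Col6a4 and -0.59 for Col18a1. The first 4 chains were lower in hyperoxia at PND7, Col18a1 was higher there, and none of the 5 passed at PND21. The call of Col6a4 held in 11 of the 22 fits that left out 1 library, and was lost with an offset of 0.1 or 0.5. That of Col18a1 was lost without male room air replicate 2 or female hyperoxia replicate 2 of PND7. The cause of these differences was not tested.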

How the results depend on the processing

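No collagen value that passed the test, in the main analysis or under an alternative, changed sign. The count of called chains at PND7 in the mean of the sexes was 11, and 7 without the 6 muscle-rich libraries. In males the 10 became 6 with only PND7 libraries, 2 with only the 2 groups compared and 5 without the muscle-rich libraries, and in females the 3 became 0 with only the 2 groups. At PND21 the 0 in the mean of the sexes became 1 with an offset of 0.1, 3 with library quality weights, 1 with only PND21 libraries and 1 without the muscle-rich libraries. In males it became 1 with weights, with only PND21 libraries and without the muscle-rich libraries, and in females 5 with weights. With weights the difference between the sexes at PND21 gave 2 chains in place of 0, the difference between the days 9 in place of 5, and the comparison of females with males over the 4 conditions 2 in place of 0. That comparison gave 1 without the muscle-rich libraries. Leaving out each library in turn gave 6 to 13 chains at PND7 in the mean, 0 to 11 in males, 0 to 4 in females, 3 to 8 for the difference between the days, 22 to 27 for age in room air and 17 (without female hyperoxia replicate 2 of PND7) to 25 for age in hyperoxia. It gave 0 to 0 for the comparisons at PND21, both differences between the sexes and females against males. Fits without 1 library can leave a group of 1, whose library is then assumed to vary like the other groups. Shares of all tested genes under these alternatives are not given here, so the counts do not show a change particular to collagens. The cause of these changes was not tested. For single chains, leaving out 1 library kept 1572 calls, lost 144 and gained 36, and the other alternatives kept 752, lost 52 and gained 49. Of 6960 and 3484 values with no call in either fit, 223 and 117 changed sign. No paired analysis was possible because the labels give the libraries no replicate numbers. Unknown read depth limits what can be said of the 7 untested chains.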
